A study of Saccharomyces cerevisiae with 72 samples.

Results

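Ribosome biogenesis factors are the proteins that process, modify and fold ribosomal RNA and build it into subunits. The 57 genes described here were chosen by symbol from a list of nucleolar assembly and rRNA processing factors. The choice was made with earlier results of these data known. All 57 were found in both deposited tables, each with 1 probe, among 5594 named genes in the kinase table and 5592 in the factor table. They comprise 3 proteins of the box C/D particles, 4 of the box H/ACA particles, 19 factors of the small subunit and 31 of the large subunit.

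The arrays compared messenger RNA of Saccharomyces cerevisiae cells exposed to methyl methanesulfonate (MMS), which alkylates DNA, for 1 h with RNA of untreated cells of the same strain. All 18 strains have the BY4741 background. The kinase set holds 13 of them: strains lacking SML1, MEC1, TEL1, TEL1 and MEC1 (tel1mec1), RAD53, CHK1 and RAD53 (chk1rad53), DUN1 and RAD53 (dun1rad53), CHK1, DUN1, CHK1 and DUN1 (chk1dun1), CRT1 or STE11, and the undeleted wild type (wt). The factor set holds 5 strains lacking HAP1, HAP4, SUT1, AFT1 (labelled rcs1) or YAP7, and no wild type. The labels give 0.03% MMS for the factor set and both 0.03% and 0.033% for the kinase set. Loss of Mec1 or Rad53 kills yeast unless a suppressor such as loss of Sml1 is present, and no label tells whether the strains without them carried one. Each strain had 2 replicates of 2 arrays with the dyes exchanged, and the 2 arrays were averaged. Nothing shows that the replicates were separate cultures, so p-values cover the spread of these samples alone, which may be technical.

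Yeast makes ribosomal RNA in the nucleolus, where the box C/D particles guide its methylation and the box H/ACA particles its pseudouridylation. A large particle around the U3 small nucleolar RNA makes the first cuts that free the precursor of the small subunit, and helicases, GTPases and methyltransferases then mature the large subunit. The genes of these factors form a regulon that falls when growth slows or stress sets in. In the DNA damage checkpoint, the kinases Mec1 and Tel1 sense damage and activate Rad53 and Chk1, and Rad53 activates Dun1.

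Values are log2 ratios of MMS over untreated, so a value of -1 is a 2-fold lower level after MMS. A gene was called where limma gave a Benjamini-Hochberg adjusted p under 0.05 over all genes of its table. The median 95% interval of a member spanned 0.25 on either side of the wild-type response and 0.36 on either side of the difference between the rad53 strain and wild type. No reading of the starting level is possible from ratios, and less RNA per cell cannot be told apart from fewer cells of a kind. The standard deviation over all genes ran from 0.20 to 0.70 on the kinase arrays and from 0.42 to 0.54 on the factor arrays. It was 0.33 to 0.49 on rad53 arrays, 0.34 to 0.42 on tel1mec1 arrays and 0.34 to 0.41 on dun1rad53 arrays, against 0.52 to 0.65 on wt arrays. The chk1rad53 arrays ran from 0.20 to 0.41. Their lowest, replicate 1 with MMS in Cy3, is averaged into the chk1rad53 values. Of the 4 dun1 arrays, the replicate 2 array that carried MMS in Cy5 went against its label, with DUN1 at 2.71 and MEC1 at -2.34. On the other 3 DUN1 lay between -0.24 and -0.11. That array and 2 others known from earlier results (mec1 replicate 1 with MMS in Cy5 and chk1rad53 replicate 1 with MMS in Cy3) were left out in 1 alternative fit.

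In wild type MMS lowered nearly the whole group. All 57 members had a mean below 0 and 51 were called lower, none higher, while 25.4% of all genes were called lower and 26.8% higher. The median member stood at -0.69, that is at 62.1% of its untreated level, against a median of 0.0003 over all genes. The 6 members that missed the threshold were DBP10, ENP2, NOP16, NOP8, RRP36 and NSA1.

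Among the box C/D proteins all 3 were called lower, with a median of -0.74. NOP1 (YDL014W), the methyltransferase known as fibrillarin, had -0.80 and -0.87 in the replicates (mean -0.84, SE 0.10, adjusted p = 1.33e-06). Its partner NOP58 had -0.28 and -1.21, and NOP56 (YLR197W) had -0.26 and -0.63 (mean -0.45, SE 0.09, adjusted p = 0.000548). Both averaged lower in replicate 2 than in replicate 1, whereas the replicate averages of NOP1 were alike. The 2 arrays of wt replicate 1 disagreed for all 3. With MMS in Cy3 and in Cy5, NOP1 was -0.27 and -1.34, NOP56 1.03 and -1.555, and NOP58 0.19 and -0.75. Each SE and p-value rests on the averages, so it does not hold this gap between dyes. All 4 box H/ACA proteins were also called lower, with a median of -0.75. NHP2 (YDL208W) had -0.70 and -0.86 (mean -0.78, SE 0.14, adjusted p = 9.92e-05). GAR1 (YHR089C), the least lowered of the 4, had -0.71 and -0.38 (mean -0.55, SE 0.11, adjusted p = 0.000452). The pseudouridine synthase CBF5 and the small protein NOP10 averaged -0.74 and -0.76.

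Of the 19 small subunit factors 17 were called lower, with a median of -0.59. RRP5 (YMR229C), which the early cuts towards both subunits need, had -0.86 and -1.14 (mean -1.002, SE 0.13, adjusted p = 2.47e-06). NSR1 (YGR159C), the yeast relative of nucleolin, had -1.08 and -0.84 (mean -0.96, SE 0.17, adjusted p = 0.000145). These 2, together with KRE33 and FAF1, formed the lower end of the group. KRE33 (YNL132W), the cytidine acetyltransferase of 18S rRNA, had -0.80 and -1.12 (mean -0.96, SE 0.11, adjusted p = 5.54e-07). FAF1 (YIL019W), which small subunit maturation needs, had -0.86 and -0.96 (mean -0.91, SE 0.14, adjusted p = 2.43e-05). At the other end stood RRP36 (YOR287C), with -0.16 and -0.28 (mean -0.22, SE 0.13, adjusted p = 0.182). The 3 proteins of the Mpp10 complex were alike, since MPP10, IMP3 and IMP4 averaged -0.44, -0.41 and -0.41. DIP2 and PWP2, subunits of the UTP-B complex that binds the U3 particle, averaged -0.72 and -0.77.

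Of the 31 large subunit factors 27 were called lower, with a median of -0.69. The GTPase NOG1 (YPL093W) had the lowest value of all members, -0.80 and -1.32 (mean -1.06, SE 0.15, adjusted p = 1.05e-05), which is 47.9% of its untreated level. NIP7 (YPL211W), which large subunit assembly needs, had -1.05 and -1.01 (mean -1.03, SE 0.10, adjusted p = 1e-07). Only these 2 and RRP5 were lowered at least 2-fold. DBP3 (YGL078C), a DEAD-box helicase, had -0.94 and -0.99 (mean -0.97, SE 0.11, adjusted p = 7.07e-07). The GTPase NOG2 (YNR053C) had -0.81 and -1.09 (mean -0.95, SE 0.10, adjusted p = 4.56e-07). The third GTPase, NUG1, averaged -0.82. NOP7, ERB1 and YTM1, which work as 1 complex, differed in size at -0.80, -0.79 and -0.34, all called. NOP16 (YER002W) had -0.30 and -0.28 (mean -0.29, SE 0.15, adjusted p = 0.122). NOP8 (YOL144W) had -0.16 and -0.34 (mean -0.25, SE 0.12, adjusted p = 0.0906). NSA1 (YGL111W) had 0.09 and -0.44 (mean -0.18, SE 0.11, adjusted p = 0.192), and it was the only member whose wt replicates differed in sign. Without wt replicate 2, the mean of NSA1 was 0.09.

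**Figure D1:**
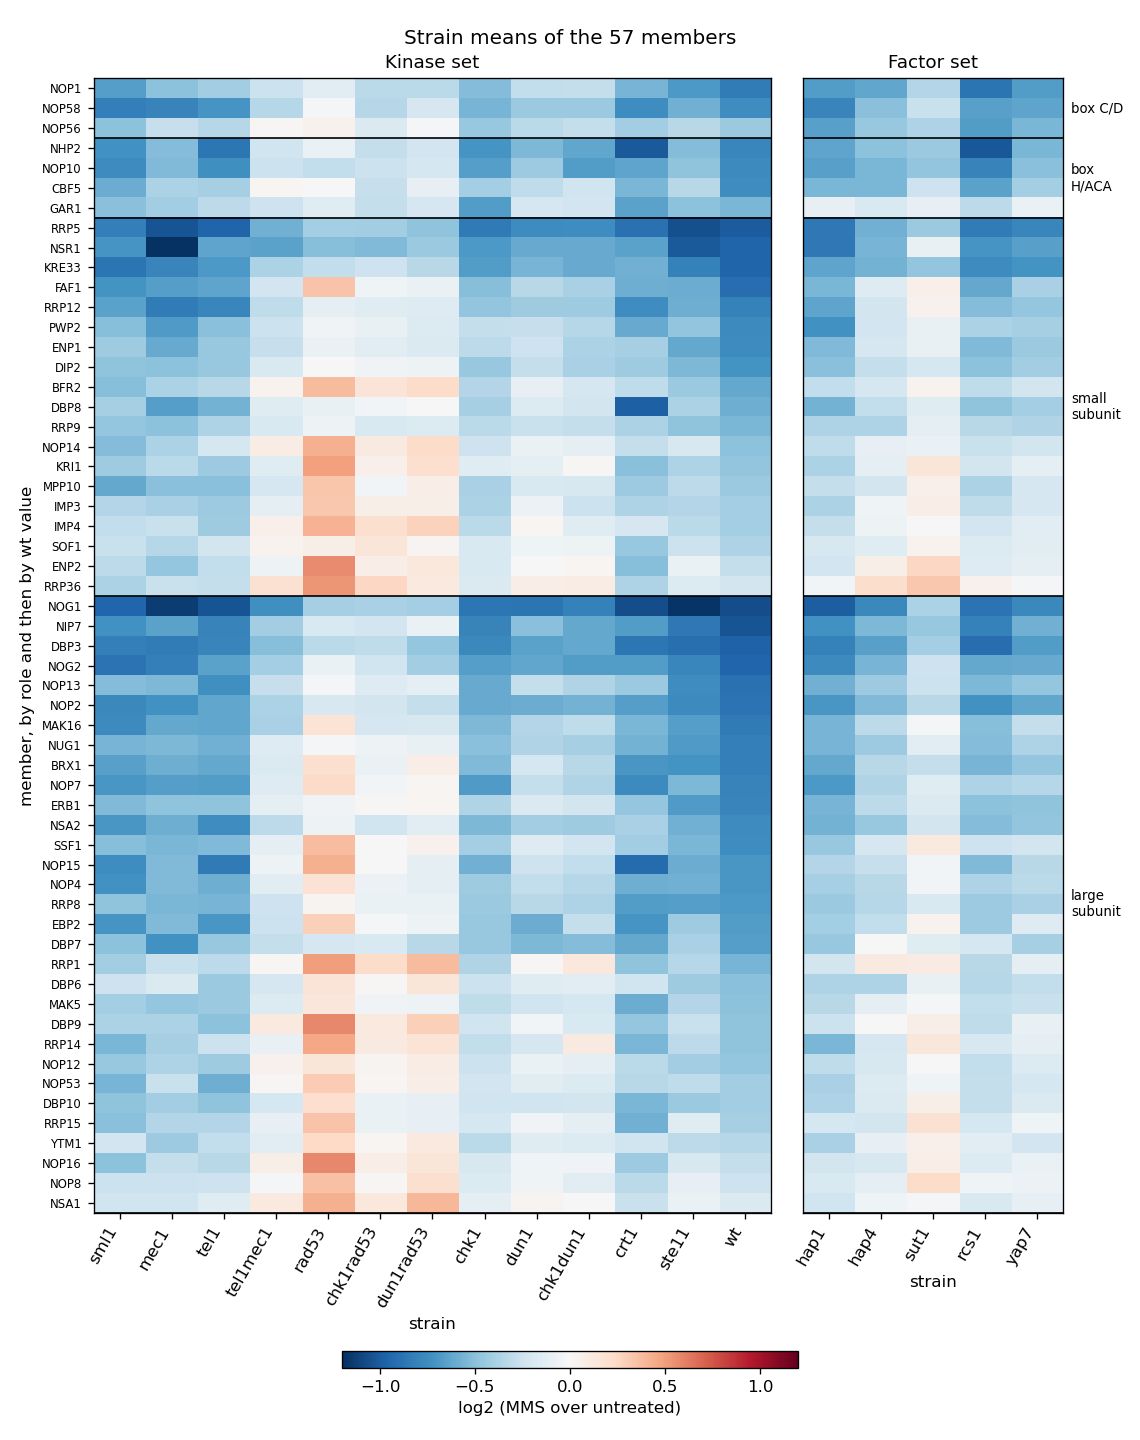
Strain means of log2 MMS over untreated for each of the 57 members (rows, by role and then by wild-type value), with the 13 kinase-set strains in the left panel and the 5 factor-set strains in the right one. Blue is lower and red higher after MMS; the rad53 column runs from -0.51 for NSR1 to 0.58 for NOP16, against -1.06 to -0.18 in wt.

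The number of members called lower differed widely across the other kinase-set strains. The crt1 strain, which lacks a repressor of ribonucleotide reductase genes, had 54 members called lower, against 23.9% of all genes, with a median of -0.55. In the sml1 strain 51 were called lower, against 25.1% of all genes, with a median of -0.52. Both the mec1 and the tel1 strain had 47 called lower, against 20.3% and 21.9% of all genes, with medians of -0.51 and -0.49. In each of these 4 strains at least 47 members fell. In the ste11 strain, which lacks a kinase of the pheromone pathway, 45 were called lower, against 23.5% of all genes, with a median of -0.48. The chk1 strain had 43 called lower, against 23.2% of all genes, with a median of -0.41. The dun1 strain had 23 called lower, against 18.1% of all genes, with a median of -0.25, and the chk1dun1 strain 25, against 17.7%, with a median of -0.29. No member was called higher in any of these 8 strains. Among all genes 26.7% were called higher in crt1, 27.0% in sml1, 23.6% in mec1, 25.7% in tel1, 28% in ste11, 26.2% in chk1, 21.8% in dun1 and 21.1% in chk1dun1.

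The strains without RAD53, and the strain without both MEC1 and TEL1, had fewer members called lower than the other kinase-set strains. As a share of the members, this was above that of all genes in tel1mec1. In the strains without RAD53 this share was somewhat below that of all genes in the main fit. In tel1mec1 11 were called lower and none higher, against 14.6% and 17.4% of all genes, with a median of -0.17. The chk1rad53 strain had 3 called lower and none higher, against 8.90% and 11.2% of all genes, with a median of -0.06. In dun1rad53 6 were called lower and 3 higher, against 15.3% and 19.0% of all genes, with a median of -0.08. With arrays scaled to a common spread, the counts called lower were 25 in tel1mec1, 14 in chk1rad53 and 10 in dun1rad53. The chk1rad53 count also rose without the 3 arrays that stand apart. Shares of all genes under these settings are not given, so the comparison with all genes holds for the main fit alone. The rad53 strain was the only one of the 13 with a median above 0, at 0.14. There 6 members were called lower and 17 higher, against 16.4% and 19.1% of all genes. The plot of members by strain shows these shifts gene by gene.

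**Figure D2:**
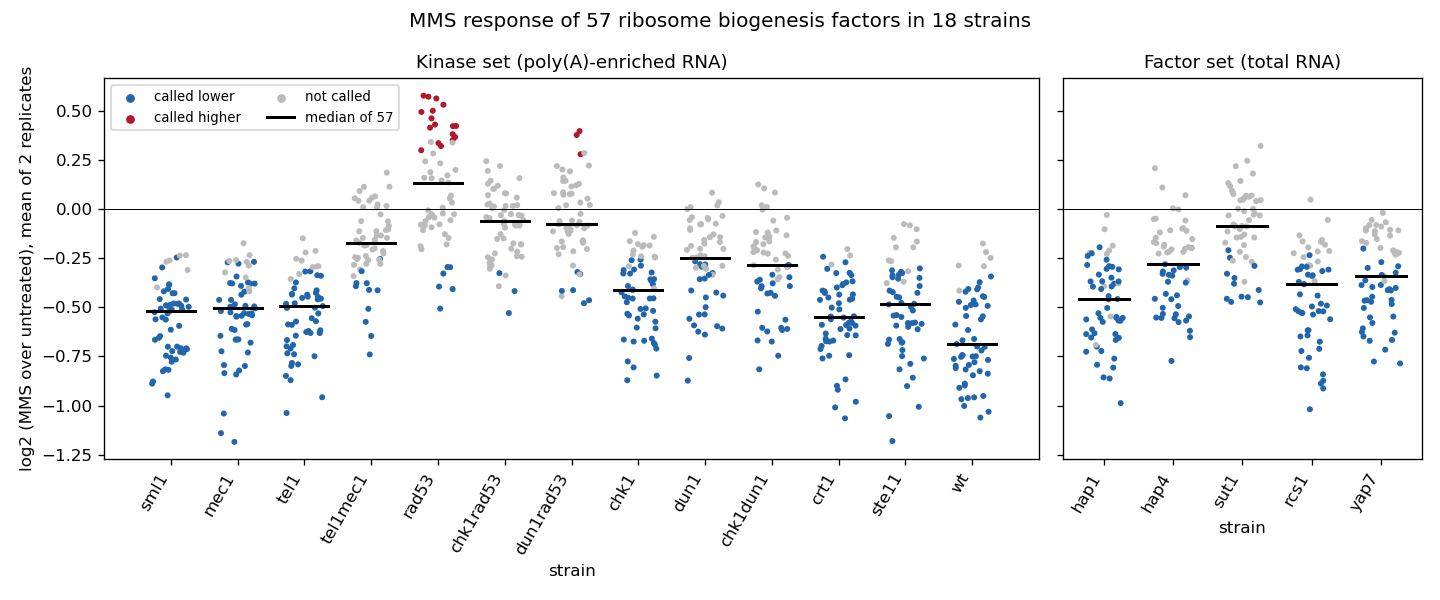
Each point is 1 of the 57 members, at its strain mean of log2 MMS over untreated (2 replicates); blue points were called lower, red points higher and grey points not called, and bars are medians. The medians are -0.17, 0.14, -0.06 and -0.08 in tel1mec1, rad53, chk1rad53 and dun1rad53, against -0.69 in wt.

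Within the rad53 strain some members rose and others fell. The 17 that rose were 8 of 19 small subunit factors and 9 of 31 large subunit factors, and none of the 7 proteins of the box C/D and H/ACA particles. ENP2, a small subunit factor, had 0.35 and 0.77 (mean 0.56, SE 0.15, adjusted p = 0.00681). RRP36, of the same group, had 0.24 and 0.82 (mean 0.53, SE 0.13, adjusted p = 0.00453). Among the large subunit factors NOP16 had 0.44 and 0.72 (mean 0.58, SE 0.15, adjusted p = 0.00619), or 1.49 times its untreated level. The helicase DBP9 had 0.42 and 0.72 (mean 0.57, SE 0.14, adjusted p = 0.004). RRP1 had 0.55 and 0.45 (mean 0.50, SE 0.12, adjusted p = 0.00382). The other members that rose were KRI1, NOP14, IMP4, BFR2, MPP10 and IMP3 of the small subunit and RRP14, NOP15, NSA1, SSF1, NOP8 and NOP53 of the large subunit.

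The 6 that fell in rad53 were NSR1, RRP5, NOG1, DBP3, KRE33 and NOP10. NSR1 had -0.45 and -0.57 (mean -0.51, SE 0.17, adjusted p = 0.0301). RRP5 had -0.46 and -0.36 (mean -0.41, SE 0.13, adjusted p = 0.0166). Of the 8 members lowest in wt, 5 were among these 6, and of the 6 members not called in wt, 5 were among the 17 that rose. Over the 57 members the rad53 and wt means correlated with r = 0.73 (n = 57 genes of a common regulon, which are not independent points, with no sample shared). The counts rest on the spread of 2 replicates: without rad53 replicate 2 only 2 members were called higher, without rad53 replicate 1 there were 10, with either left out none was called lower, and on arrays with MMS in Cy5 alone none was called either way.

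Set directly against wild type, members were called different in 4 strains. In rad53 minus wt 51 members were called higher and none lower, against 10.3% and 10.9% of all genes, with a median difference of 0.73. The 6 not called were DBP10, DBP7, DBP8, GAR1, NSR1 and SOF1. Both rad53 replicates lay above both wt replicates for all 57 members, and 8 of the called members differed by at least 1 (2-fold). How many of all genes were separated in this way was not counted, and the members share the same arrays. FAF1 had 0.16 and 0.52 in rad53, against -0.86 and -0.96 in wt (difference 1.25, SE 0.20, adjusted p = 0.000237). NOP15, a large subunit factor, had 0.14 and 0.71 in rad53, against -0.61 and -0.79 in wt (difference 1.12, SE 0.23, adjusted p = 0.002). SSF1, which matures the large subunit, had 0.21 and 0.53 in rad53, against -0.83 and -0.67 in wt (difference 1.12, SE 0.18, adjusted p = 0.00024). For these 3, which were named for their large differences, every rad53 replicate average lay above 0 and every wt one below 0. On the single rad53 replicate 1 array with MMS in Cy5, however, FAF1 was -0.04 and NOP15 -0.07. RRP1 had 0.55 and 0.45 in rad53, against -0.60 and -0.52 in wt (difference 1.06, SE 0.18, adjusted p = 0.000354). DBP9 had 0.42 and 0.72 in rad53, against -0.20 and -0.77 in wt (difference 1.06, SE 0.20, adjusted p = 0.00106). The smallest called differences were those of RRP9, the U3-specific protein, at 0.49 (SE 0.13, adjusted p = 0.0137), and NOP10 at 0.47 (SE 0.15, adjusted p = 0.0364). By role, 3 of 3 box C/D, 3 of 4 box H/ACA, 16 of 19 small subunit and 29 of 31 large subunit members were called higher, with median differences of 0.71, 0.58, 0.73 and 0.75. Without wt replicate 2, or without rad53 replicate 2, 29 members were called. Scaled to a common spread, 39 were called and the median difference was 0.56.

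**Figure D3:**
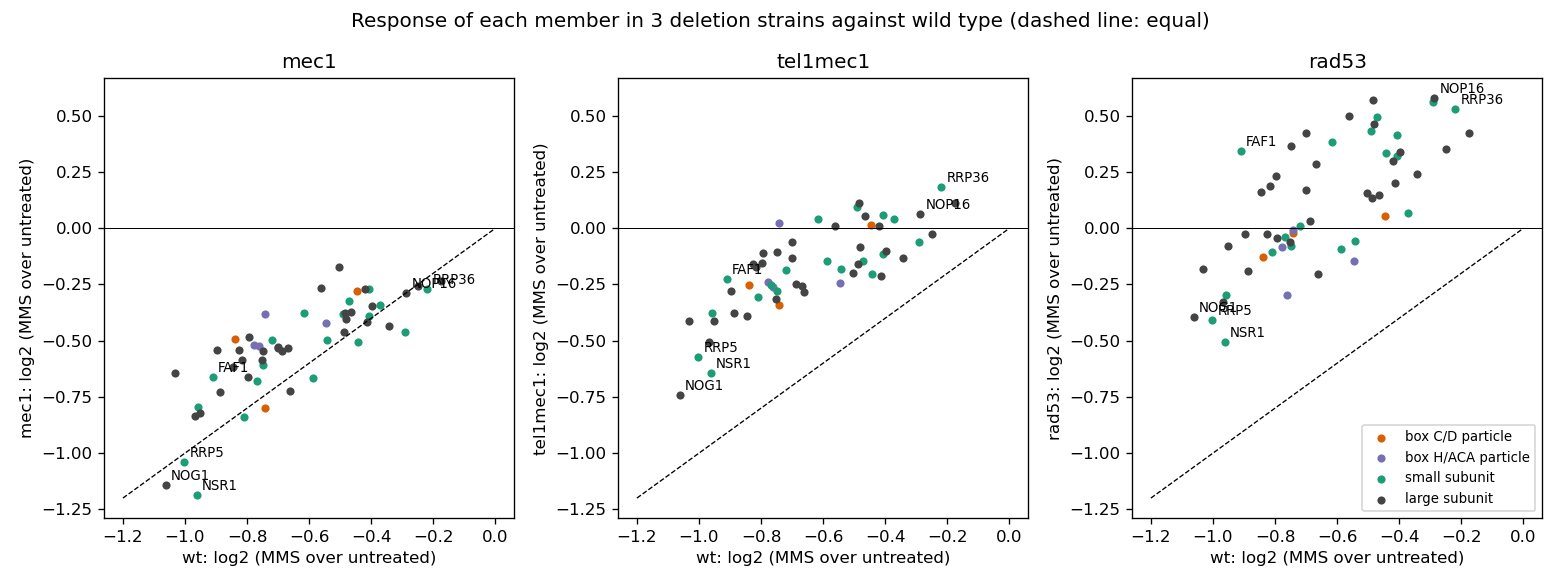
Each point is a member, with its wt response on the x axis and its response in mec1 (left), tel1mec1 (middle) or rad53 (right) on the y axis, both log2 MMS over untreated; colours give the role and the dashed line marks equal responses. All 57 points lie above the line in the tel1mec1 and rad53 panels, while 42 do in the mec1 panel, where no member was called different from wt.

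Members were also called higher than in wild type in both double deletions that include RAD53. In chk1rad53 30 members were called higher and none lower, against 6.31% and 7.72% of all genes, with a median difference of 0.58. In dun1rad53 35 were called higher and none lower, against 7.58% and 8.54% of all genes, with a median difference of 0.59. NIP7 had -0.03 and -0.13 in dun1rad53 and -0.13 and -0.32 in chk1rad53, against -1.05 and -1.01 in wt. Its differences from wt were 0.95 (SE 0.14, adjusted p = 0.000163) in dun1rad53 and 0.81 (SE 0.14, adjusted p = 0.00081) in chk1rad53. BFR2, a small subunit factor, had 0.21 and 0.24 in dun1rad53 and 0.14 and 0.18 in chk1rad53, against -0.66 and -0.57 in wt. It differed by 0.84 (SE 0.15, adjusted p = 0.000667) and 0.77 (SE 0.15, adjusted p = 0.00136). RRP1 differed by 0.94 (SE 0.18, adjusted p = 0.00124) in dun1rad53 and by 0.78 (SE 0.18, adjusted p = 0.00563) in chk1rad53. FAF1 differed by 0.83 (SE 0.20, adjusted p = 0.00722) and 0.85 (SE 0.20, adjusted p = 0.00681). BRX1, a large subunit factor, differed by 0.89 (SE 0.17, adjusted p = 0.00159) in dun1rad53, and ERB1 by 0.81 (SE 0.15, adjusted p = 0.00111) in chk1rad53. The smallest called differences in dun1rad53 were those of IMP3, at 0.48 (adjusted p = 0.046), and NOP56, at 0.42 (adjusted p = 0.0345). In chk1rad53 they were those of NOP10, at 0.51 (adjusted p = 0.034), and NOP12, at 0.49 (adjusted p = 0.0134). On arrays with MMS in Cy3 alone, the difference of NOP56 in dun1rad53 was -0.11.

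The counts of the double deletions moved with single replicates. In chk1rad53 8 members were called without its replicate 1 and 12 without wt replicate 2. In dun1rad53 12 were called without its replicate 1, 20 without its replicate 2 and 12 without wt replicate 2. Scaled to a common spread, 14 were called in chk1rad53 and 18 in dun1rad53, with median differences of 0.41 and 0.40. These 3 comparisons and the next share the wt arrays, so they are not independent of each other.

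In tel1mec1 minus wt 22 members were called higher and none lower, against 5.06% and 7.85% of all genes, with a median difference of 0.46. CBF5 had 0.11 and -0.06 in tel1mec1, against -0.54 and -0.95 in wt (difference 0.77, SE 0.18, adjusted p = 0.00853). FAF1 had -0.17 and -0.28 in tel1mec1, against -0.86 and -0.96 in wt (difference 0.68, SE 0.20, adjusted p = 0.0267). ERB1 had -0.19 and -0.03 in tel1mec1, against -0.73 and -0.85 in wt (difference 0.68, SE 0.15, adjusted p = 0.00442). Over these 3, named for their large differences, the lowest tel1mec1 replicate average was -0.28 and the highest wt one -0.54. Single arrays of CBF5 overlapped, with 0.19 in wt replicate 1 (MMS in Cy3) and -0.13 in tel1mec1 replicate 2 (MMS in Cy5). Those of FAF1 and ERB1 did not overlap. NUG1 differed by 0.67 (SE 0.16, adjusted p = 0.0106) and BFR2 by 0.66 (SE 0.15, adjusted p = 0.00507). The smallest called differences were 0.46 for IMP4 (adjusted p = 0.0194) and 0.46 for NOP56 (adjusted p = 0.0244). By role, 2 of 3 box C/D, 2 of 4 box H/ACA, 7 of 19 small subunit and 11 of 31 large subunit members were called. This count depended on the arrays used: 2 members were called with arrays scaled to a common spread, where the median difference was 0.25, 5 without tel1mec1 replicate 1, 8 without tel1mec1 replicate 2, 7 without wt replicate 2, and none on arrays with MMS in Cy5 alone.

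**Figure D4:**
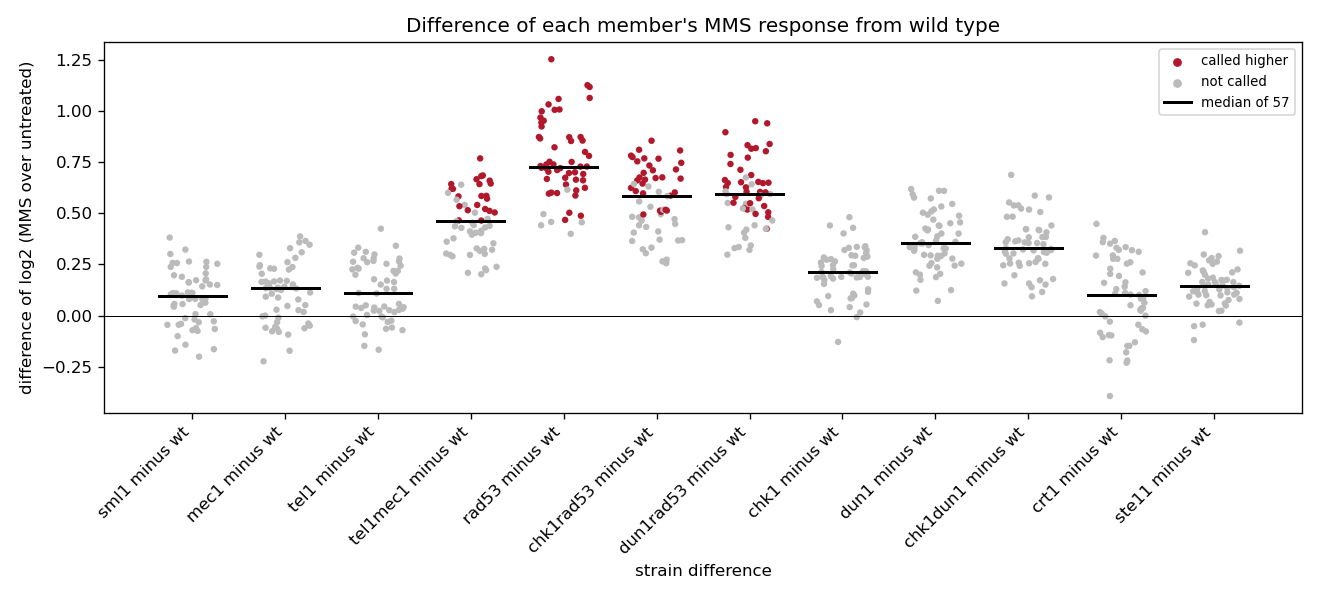
Each point is the difference between a member's log2 response in a deletion strain and in wt, with called members in red, others in grey and the median as a bar. Medians are 0.46, 0.73, 0.58 and 0.59 in tel1mec1, rad53, chk1rad53 and dun1rad53, 0.35 and 0.33 in dun1 and chk1dun1, and between 0.10 and 0.21 in the remaining 6 strains.

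No member was called in limma's test for the other 8 strains minus wt. In dun1 all 57 differences were above 0, with a median of 0.35, and 27 had an unadjusted p under 0.05, while the lowest adjusted p was 0.0653. In chk1dun1 all 57 were above 0 as well, with a median of 0.33, 23 at an unadjusted p under 0.05 and a lowest adjusted p of 0.0963. Among all genes 0.0536% were called higher in dun1 and 0.0358% in chk1dun1. These shares are at the adjusted threshold. No share of all genes at an unadjusted p under 0.05 is given beside the member counts at that level. Without the 3 arrays that stand apart, 5 members were called higher in dun1 and 1 in chk1dun1. The median upper bound of the 95% interval was 0.70 in both, which is above the smallest called differences in chk1rad53 and below its 5 largest. The medians were 0.21 in chk1, 0.14 in ste11, 0.13 in mec1, 0.11 in tel1, 0.10 in crt1 and 0.10 in sml1. In these strains 6, 2, 4, 3, 9 and 3 members had an unadjusted p under 0.05, and between 0% and 0.501% of all genes were called higher and between 0% and 1.05% lower. For mec1 the median was -0.04 with arrays scaled to a common spread. Within slides that carried both strains with the same dye for MMS, the median difference from wt was 0.28 and 0.43 in sml1 (2 slides) and 0.48 in dun1 (1 slide), values with no test. No other strain shared a slide and dye with wt. The 4 strains with called members therefore have no comparison with wt within a slide, and a part of the slide in their differences was not tested.

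The deletion strains were also set against each other. In mec1 minus rad53 39 members were called lower and none higher, against 4.81% and 3.93% of all genes, with a median difference of -0.64. ENP2 had -0.73 and -0.20 in mec1, against 0.35 and 0.77 in rad53 (difference -1.03, SE 0.21, adjusted p = 0.00877). FAF1 had -1.03 and -0.29 in mec1, against 0.16 and 0.52 in rad53 (difference -1.01, SE 0.20, adjusted p = 0.00674). NOP15, DBP9 and SSF1 differed by -0.95, -0.95 and -0.91. The smallest called were NIP7 at -0.47 and RRP9 at -0.44 (adjusted p = 0.0458 for both). The mec1 replicates were far apart, with member medians of -0.73 and -0.30. No member was called without mec1 replicate 1, 2 were called without rad53 replicate 2, 25 without rad53 replicate 1 and 20 without the 3 arrays that stand apart. With a fit of these 2 strains alone, or with arrays of either dye alone, none was called.

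No member was called in tel1mec1 minus mec1, where the median difference was 0.35, 56 members were above 0 and 28 had an unadjusted p under 0.05 (lowest adjusted p = 0.0947). Without mec1 replicate 2, 7 were called higher. Of all genes, 0.661% were called higher and 1.72% lower in this contrast. Shares of all genes in this paragraph are at the adjusted p, and none is given at the unadjusted p. In dun1rad53 minus dun1 none was called either, where 0.590% of all genes were called higher and 1.84% lower, with a median difference of 0.23 and 8 members at an unadjusted p under 0.05. A further 3 contrasts were added after the strain values were seen. In rad53 minus dun1 2 members were called higher, EBP2 and NOG2, against 1.11% of all genes. EBP2, a large subunit factor, had 0.04 and 0.53 in rad53, against -0.35 and -0.84 in dun1 (difference 0.88, SE 0.24, adjusted p = 0.044). NOG2 had -0.05 and -0.11 in rad53, against -0.63 and -0.62 in dun1 (difference 0.54, SE 0.15, adjusted p = 0.044). With any replicate of either strain left out, 0 or 1 member was called, and without the 3 arrays that stand apart 12 were. In rad53 minus tel1mec1 no member was called, with a median of 0.31 and 19 at an unadjusted p under 0.05, and in rad53 minus dun1rad53 none, with a median of 0.13 and 4 at an unadjusted p under 0.05. In those contrasts 0.0179% and 0% of all genes were called higher.

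The members can be read beside the other genes that fell in wild type. The 1368 other genes called lower in wt, which were chosen by that value, had medians of -0.19 in tel1mec1, -0.18 in rad53, -0.17 in chk1rad53 and -0.20 in dun1rad53, against -0.40 in wt. The members' medians in those strains were -0.17, 0.14, -0.06 and -0.08, against -0.69 in wt. In dun1 the other genes stood at -0.28 and the members at -0.25. These are medians of sets of unequal starting value, and no test was made of their difference.

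Members varied unequally across the 13 kinase-set strains. The standard deviation over strain means was largest for NOP15 (0.39), RRP1 (0.34), NOP7 (0.34), FAF1 (0.34) and DBP9 (0.33), and smallest for RRP9 (0.15), DBP7 (0.17) and GAR1 (0.18). The median member had 0.25, against 0.12 over all genes. The highest of the 13 means was that of rad53 for 46 members, and the lowest was that of wt for 26. For how many of all genes this held was not counted. RRP5 was called lower in all 18 strains, and DBP3, KRE33, NOG1, NOP1 and NSR1 in at least 16. NOP8 was called lower in 1 strain. How many of all genes were called lower this often was not counted. The genes outside the group whose 13 strain means were most like the median of the members, by Pearson r, were UTP14 (0.99), NOP19 (0.99), NMD3 (0.98), RPF1 (0.98), NOC2 (0.98), RPC31 (0.98), ESF2 (0.98), MRD1 (0.98), BUD27 (0.97) and BMT5 (0.97). Of the 50 most alike, 25 were on a list of 115 other assembly factors, out of 5594 named genes in the kinase table, members included.

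The wider list of assembly factors was low in wild type too. Of its 115 genes 95 were called lower in wt, with a median of -0.49, and in rad53 minus wt 99 were called higher, with a median difference of 0.64. The nuclear export adaptor of the large subunit, NMD3, stood at 0.11 in rad53, against -0.81 in wt, and the small subunit processing factor UTP14 at 0.16 in rad53, against -0.59 in wt. The list of 15 RNA polymerase I subunits and initiation factors had 11 called lower in wt, with a median of -0.60, and 4 called higher in rad53 minus wt, with a median difference of 0.35. These 4 were RPA135, RPA49, RPA43 and RPA34. These counts stand beside 25.4% of all genes called lower in wt and 10.3% called higher in rad53 minus wt. Of the ribosomal protein genes, 61 of 134 were called lower in wt, with a median of -0.22, and 5 were called higher in rad53 minus wt, with a median difference of 0.16.

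Among 22 measured genes of a list of regulators of the regulon and of growth signalling, 10 were called lower and 3 higher in wt. Of all genes 25.4% were called lower and 26.8% higher there. SFP1, an activator of ribosome biogenesis genes, stood at -0.08 (adjusted p = 0.56), and the repressors STB3 and DOT6 at 0.02 (adjusted p = 0.901) and -0.01 (adjusted p = 0.944). TOD6, a repressor related to DOT6, was 0.15 in rad53, against -0.63 in wt (difference 0.78, adjusted p = 0.00951). RAP1, FHL1 and IFH1, which act on ribosomal protein genes, were called lower in wt at -0.53, -0.47 and -0.72. In tel1mec1 minus wt RAP1 alone of the 22 was called, at 0.35 (adjusted p = 0.0378), where 5.06% of all genes were called higher and 7.85% lower.

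In the factor set, measured on total RNA, the share of members called lower was above that of all genes in 4 strains and near it in sut1. In hap1, which lacks a heme-responsive factor, 47 members were called lower, against 27.0% of all genes, with a median of -0.46. In rcs1 41 were called lower, against 27.3% of all genes, with a median of -0.38. In yap7 33 were called lower, against 26.2% of all genes, with a median of -0.34. In hap4 29 were called lower, against 26.1% of all genes, with a median of -0.28. In sut1, which lacks a factor of sterol uptake and low-oxygen growth, 12 were called lower, or 21.1%, against 22.5% of all genes, with a median of -0.08. There 15 members had both replicates above 0. No member was called higher in any of the 5, where between 24.7% and 30.1% of all genes were. NOG1 had -0.92 and -1.05 in hap1, -0.83 and -0.71 in hap4, -0.39 and -0.37 in sut1, -1.04 and -0.74 in rcs1, and -0.63 and -0.92 in yap7. The 12 members called lower in all 5 strains were BRX1, CBF5, DBP3, DIP2, KRE33, NHP2, NIP7, NOG1, NOP1, NOP10, NOP2 and RRP5. The 9 called in none were ENP2, KRI1, NOP16, NOP53, NOP7, NOP8, RRP14, RRP15 and RRP36. Some of these had replicates far apart, such as NOP7 in hap1 at -0.24 and -1.14 (mean -0.69), so a missing call does not show a missing response. How many of all genes were called in all 5 strains or in none was not counted.

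The sut1 strain was set against the mean of the other 4. All 57 differences were above 0, with a median of 0.29, and 38 members had an unadjusted p under 0.05. None was called by limma (lowest adjusted p = 0.0842), and 0.0715% of all genes were called higher at that adjusted threshold. The share of all genes at an unadjusted p under 0.05 is not given. No member was called for the other 4 strains in this comparison, with 9 at an unadjusted p under 0.05 in hap1, 2 in hap4, 12 in rcs1 and none in yap7. The 2 arrays of sut1 replicate 1 had member medians of 0.33 with MMS in Cy3 and -0.54 with MMS in Cy5, and those of replicate 2 had -0.24 and 0.17.

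Arrays with opposite dyes gave the group different medians. Member medians on the 4 arrays of a strain spanned -0.01 to 0.32 in rad53, against -0.77 to -0.36 in wt. In crt1 replicate 2 they were -0.11 with MMS in Cy3 and -1.001 with MMS in Cy5, and the lowest array median of all was -1.01, on sml1 replicate 1 with MMS in Cy5. All 4 wt arrays lay below all 4 rad53 arrays. With only arrays having MMS in Cy5, 17 members were called higher in rad53 minus wt, and with only those having MMS in Cy3, 32. The part of the dye in the other differences was not tested beyond these alternatives.

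**Figure D5:**
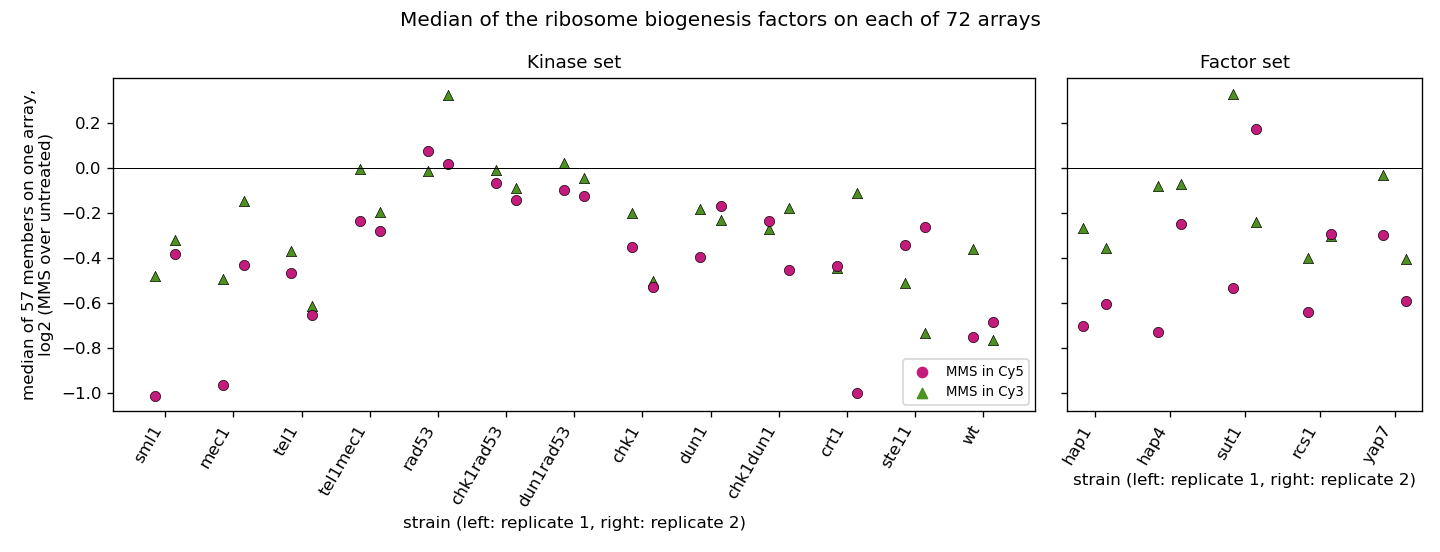
Median log2 MMS over untreated of the 57 members on each of the 72 arrays, by strain, with circles for MMS in Cy5, triangles for MMS in Cy3, replicate 1 on the left and replicate 2 on the right. The rad53 arrays lie between -0.01 and 0.32 and the wt arrays between -0.77 and -0.36.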

How the data were processed

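The values deposited by the authors were read as log2 ratios of 2-colour arrays. The submitters' processing notes name limma without its role, and the log base (taken as 2) and any centring are not given in the sources used here. The kinase set (52 arrays, poly(A)-enriched RNA) and the factor set (20 arrays, total RNA) are separate tables and were never tested across. Ratios were turned to MMS over untreated by the labelled dyes, and both arrays of a replicate averaged, which leaves 2 replicates per strain. limma 3.58.1 (R 4.3.3) fitted 1 mean per strain with empirical Bayes variances, on 5594 and 5592 genes with 1 symbol, with Benjamini-Hochberg adjustment over all of them and a threshold of 0.05. The number of arrays limits the precision. Members and lists were chosen with earlier results of these data known. Named by rule were the 8 lowest and 4 highest members in wild type, the 5 largest and 2 smallest called differences per contrast, the extremes of each role and of the spread over strains, and the 10 genes most like the members' median. Alternatives used scaled arrays, slide or replicate blocks, single dyes, fewer strains, and left-out replicates or arrays. 1 listed regulator is not reported here. No sequences were used.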

Additional observations from a re-analysis of the deposited data

Results flagged for a closer look

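Differences between strains under the same MMS treatment were tested directly by limma, and 6 contrasts held called members. These were 22 members higher in tel1mec1 minus wt, 51 in rad53 minus wt, 30 in chk1rad53 minus wt, 35 in dun1rad53 minus wt and 2 in rad53 minus dun1, and 39 members lower in mec1 minus rad53. The first 4 share the wt arrays. One array value stood apart from its group: NSA1 was 0.677 on wt replicate 1 with MMS in Cy5, against -0.50, -0.49 and -0.39 on the other 3 wt arrays. A gap this wide was looked for in 30 groups of 4 arrays, and chance gives one in about 1 of 20 groups. Its cause was not tested.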

How the results depend on the processing

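Of the named members' values, 493 kept direction and side of the threshold, 150 lost the call, 3 gained it and 4 changed sign. The changes of sign were NOP56 in dun1rad53 minus wt (-0.11 with MMS in Cy3 only), NSA1 in wt (0.14 with MMS in Cy5 only, 0.0874 without wt replicate 2, against -0.438 without wt replicate 1) and RRP36 in wt (0.0049 with MMS in Cy3 only). The counts below are of members called, without the share of all genes at each setting. Single-dye fits use fewer arrays and leaving out a replicate lowers the number of samples; for the other alternatives the cause was not tested.

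With arrays scaled to a common spread, members higher were 14 in chk1rad53 minus wt, 18 in dun1rad53 minus wt, 2 in tel1mec1 minus wt, 12 in rad53 minus dun1, 1 in tel1mec1 minus mec1, and 3 and 6 in the responses of chk1rad53 and dun1rad53. Members lower in the responses were then 14 in chk1rad53, 10 in dun1rad53 and 25 in tel1mec1. Each array as a value with the slide as a random block gave 2 higher in chk1dun1 minus wt, 2 in dun1 minus wt and 1 in dun1rad53 minus dun1, and 7 lower in chk1rad53. With the strain's replicate as that random block these were 2, 8, 1 and 7, with 8 in rad53 minus dun1, 1 in sut1 minus the mean of the other 4 and 2 in tel1mec1 minus mec1. Without the 3 arrays that stand apart, members higher were 1 in chk1dun1 minus wt, 5 in dun1 minus wt, 1 in mec1 minus wt, 12 in rad53 minus dun1 and 1 in the chk1rad53 response, and members lower were 20 in mec1 minus rad53 and 12 in the chk1rad53 response. With only the strains of the contrast, 0 were higher in rad53 minus dun1, 14 in tel1mec1 minus wt, and 0 lower in mec1 minus rad53.

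With MMS in Cy3 only, members higher were 1 in chk1dun1 minus wt, 13 in chk1rad53 minus wt, 2 in dun1 minus wt, 15 in dun1rad53 minus wt, 2 in mec1 minus wt, 32 in rad53 minus wt, 8 in tel1mec1 minus wt and 1 in the hap4 response. Members lower were 0 in mec1 minus rad53 and, in the responses, 24 in chk1, 11 in chk1dun1, 0 in chk1rad53, 20 in crt1, 9 in dun1, 18 in hap1, 8 in hap4, 10 in mec1, 1 in rad53, 23 in sml1, 5 in sut1, 31 in tel1, 4 in tel1mec1 and 13 in yap7. With MMS in Cy5 only, members higher were 7 in chk1rad53 minus wt, 3 in dun1rad53 minus wt, 0 in rad53 minus dun1, 17 in rad53 minus wt, 0 in tel1mec1 minus wt, and 0 in the dun1rad53 and rad53 responses. Members lower were 0 in mec1 minus rad53 and, in the responses, 16 in chk1, 9 in chk1dun1, 0 in chk1rad53, 9 in dun1, 0 in dun1rad53, 0 in rad53, 21 in rcs1, 21 in ste11, 4 in sut1, 28 in tel1 and 5 in tel1mec1.

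Leaving out 1 replicate gave 8 to 34 higher in chk1rad53 minus wt, 12 to 35 in dun1rad53 minus wt, 29 to 50 in rad53 minus wt, 5 to 21 in tel1mec1 minus wt, 0 to 1 in rad53 minus dun1, up to 7 in tel1mec1 minus mec1, 2 to 10 in the rad53 response and 0 in the dun1rad53 response. It gave 0 to 50 lower in mec1 minus rad53, and up to 1 in crt1 minus wt and in hap1 and rcs1 minus the mean of the other 4. In the responses it gave 13 to 40 lower in chk1, 9 to 11 in chk1dun1, 0 to 4 in chk1rad53, 28 to 44 in crt1, 8 to 12 in dun1, 0 to 3 in dun1rad53, 11 to 28 in hap4, 12 to 51 in mec1, 0 in rad53, 21 to 41 in rcs1, 20 to 56 in sml1, 28 to 32 in ste11, 4 to 5 in sut1, 29 to 42 in tel1, 2 to 5 in tel1mec1 and 12 to 40 in yap7. A strain left with 1 replicate is assumed to vary like the others.

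Replicate numbers did not pair the samples: deviations of same-numbered replicates correlated between -0.46 and 0.43 over 78 strain pairs of the kinase set, with 18 over 0.1. With the replicate number as a block, rad53 minus dun1 had 1 member called, and the calls of IMP3 (adjusted p = 0.0553 in dun1rad53 minus wt), NIP7 and RRP9 (0.0562 in mec1 minus rad53) and NOG2 (0.0516 in rad53 minus dun1) were lost.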

Other observations

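In the factor set the replicates of hap1 and hap4 paired across strains in correlations over the members. Over the 57 members, hap1 replicate 1 and hap1 replicate 2 correlated with r = 0.01, and hap4 replicate 1 and hap4 replicate 2 with r = 0.28. Across the strains, hap1 replicate 1 and hap4 replicate 2 had r = 0.83, and hap1 replicate 2 and hap4 replicate 1 had r = 0.84. Over the 5535 other genes the same pairs had 0.91, 0.92, 0.83 and 0.88, so the within-strain pairs were the more alike there. These are descriptions over genes that share arrays. Single members show it: RRP36 had 0.81 and -0.87 in hap1 and -0.51 and 0.93 in hap4, and NOP7 had -0.24 and -1.14 in hap1 and -1.001 and 0.28 in hap4. RRP14 had 0.25 and -1.34 in hap1 and -0.83 and 0.43 in hap4. Not all members showed it: in hap1 IMP3 had -0.37 and -0.39, and NIP7 -0.76 and -0.68. Where members showed this split, their means in these 2 strains average over it, and its cause was not tested. limma estimated the spread of each gene over the whole factor set. For such members the split therefore also enters the calls in the other factor strains.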
